A study of Mus musculus with 4 samples.

Results

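Genes that restrain the Ras-ERK (MAPK) pathway from within, and the Ets transcription factors that act at its output, were examined in mouse mammary basal cell colonies grown with or without Wnt3A. The set held 10 genes taken by symbol: the phosphatase genes Dusp4, Dusp5 and Dusp6, the Sprouty and Spred genes Spry1, Spry2, Spry4 and Spred1, the Ets factor genes Etv4 and Etv5, and Errfi1. Every probe set whose only gene symbol in the array's annotation was one of these was used, which gave 25 probe sets of 45037 on the array, and 10 genes of 18193. The cells came from virgin CD1 female mice 8 to 12 weeks old and were sorted for low lineage markers, CD24 and high CD29, a gate enriched for mammary stem cells. All colonies were grown in Matrigel, a basement membrane gel, with 50 ng/ml EGF. The Wnt3A group received 200 ng/ml purified Wnt3A protein, and the control group its vehicle, CHAPS detergent in PBS. Second-passage colonies (passage 2) were harvested for RNA at 6 to 7 days. There were 2 arrays in each group, control 1 and 2 and Wnt3A 1 and 2. Nothing in the labels tells whether replicate arrays represent different mice or cultures, and p-values here therefore reflect only the spread among these samples, which may be technical.

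EGF and FGF receptors switch on Ras, which passes the signal through Raf and MEK to the kinase ERK. ERK then induces genes whose products damp the same signal, so that transcripts of these feedback genes are widely read as a record of recent ERK activity. In the mammary gland this pathway drives growth and branching of the epithelium, and the Etv4 and Etv5 factors are known as its transcriptional effectors in branching organs. EGF was in the medium of both groups, so the comparison asked whether Wnt3A changed these transcripts on a background of constant EGF.

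The promoters of the members are shown first where a motif match or the size of a difference singles one out. RefSeq (GRCm38.p6) gave promoters for 7 of the 10 members, 9 promoters in all, and Dusp4, Etv4 and Spry4 had no entry. The 250 bases before each start were searched on both strands for the TCF/LEF core CTTTGA, the AP-1 site TGANTCA, the cyclic AMP response element TGACGTCA, the Ets core CCGGAAG and the CArG box, which serum response factor binds. The Dusp6 promoter (chr10:99262981-99263230, plus strand) is printed because Dusp6 had the largest difference. It held no match to these letters, so no base is in capitals. The Dusp5 promoter (chr19:53528895-53529144, plus strand) held 2 adjacent CArG boxes, in capitals, 82 to 63 bases before the start, and overlapped no other motif searched.
Dusp6: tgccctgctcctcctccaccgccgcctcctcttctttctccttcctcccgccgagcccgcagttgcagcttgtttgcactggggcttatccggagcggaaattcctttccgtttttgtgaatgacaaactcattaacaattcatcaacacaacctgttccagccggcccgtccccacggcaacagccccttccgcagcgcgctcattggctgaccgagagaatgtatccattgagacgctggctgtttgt
Dusp5: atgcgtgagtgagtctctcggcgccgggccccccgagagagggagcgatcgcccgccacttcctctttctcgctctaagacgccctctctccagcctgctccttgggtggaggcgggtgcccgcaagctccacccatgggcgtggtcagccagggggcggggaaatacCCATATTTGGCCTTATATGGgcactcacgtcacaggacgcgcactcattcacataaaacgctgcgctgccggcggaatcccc

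Errfi1 has 2 annotated starts with a different motif before each. The first held a TCF/LEF core match, the only one among the 9 member promoters, and the second a cyclic AMP response element. These are shown as 30 bases with the motif in capitals (chr4:150853616-150853645 and chr4:150855008-150855037, both plus strand).
Errfi1 start 1: taaagttaaggcCTTTGAgttcaattaaaa
Errfi1 start 2: gctgcgggcgtTGACGTCAcgttgtcgctc
Over all 32851 promoters of the same length, 13.8% held the TCF/LEF core, 1.5% the cyclic AMP element, 1.5% a CArG box, 6.7% the AP-1 site and 6.9% the Ets core. A match is a description of the letters and is no sign that a factor binds there.

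Values are the deposited log2 values, each a difference from the probe set's median over the 4 arrays, so they compare arrays and carry no absolute level. A rough level was read from how finely the stored numbers are spaced, a reading that can place a probe set too high. By it, 15 of the 25 probe sets had a median in the log2 range 8 to 16, 8 in the range 4 to 8, and 2 below 4, where signal is weakest. Over all probe sets the shares were 41.6%, 42.9% and 15.5%. Array medians lay between -0.016 and 0.020. Of the basal markers, including Krt5, Krt14 and Trp63, 14 of 15 had a probe set in the range 8 to 16. Luminal markers were all in that range (13 of 13), as were 7 of 12 fibroblast, 4 of 10 endothelial and 3 of 11 immune markers. The markers of these lists below 4 were Lum (fibroblast), Emcn and Tie1 (endothelial), and Itgam and the pan-leukocyte marker Ptprc (immune). A marker counts in the highest range of its probe sets, so the shares of single probe sets above are no direct match. The list medians of these 3 other cell types differed between groups by -0.03 to 0.03 log2 units. Single fibroblast genes varied more. Pdgfra read 1.67 and 0.42 in the controls against -0.42 and -1.01 with Wnt3A (-1.76 ± 0.47). Postn read -0.24 and 1.24 against 0.24 and -0.54, and overlapped. Fap read -0.02 and -0.34 against 0.02 and 0.15, separated higher (0.27 ± 0.17). Of 11 fibroblast genes measured, 3 were separated higher and 1 lower, against 17.2% and 18.4% of all genes. The part of these genes in the member values was not tested. Squamous differentiation markers are genes of cornifying epidermis. Of 20 on the array, 13 had a probe set in the range 8 to 16, and Krt13 and Sprr1a lay below 4. Squamous markers were separated higher with Wnt3A for 15 of 18 genes measured, against 17.2% of all genes. Their list median was -0.49 and -0.34 in control 1 and 2 and 0.23 and 1.14 in Wnt3A 1 and 2, and their part in the differences below was not tested. In bulk colonies, fewer cells of a type and less RNA per cell cannot be told apart.

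Lower Dusp6 and Spred1 signal in the Wnt3A arrays was the clearest separation among the members when arrays were not paired by number. The other 8 genes overlapped on all but 1 of their probe sets. Dusp6 was 1.05 ± 0.28 log2 units (SE, n = 2 arrays a group) lower with Wnt3A, 5 of 8 Spred1 probe sets had both Wnt3A arrays below both controls, and Etv5 and Errfi1 were high in 1 control array each. No difference passed the test. Limma called 0% of the 45037 probe sets at an adjusted p under 0.05, in either direction, with 2801 at an unadjusted p under 0.05 (6.22%), and the members' adjusted p-values ran from 0.728 to 1. Of the 25 member probe sets, 4 had an unadjusted p under 0.05 in limma: that of Dusp6 and 3 of Spred1.

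**Figure D1:**
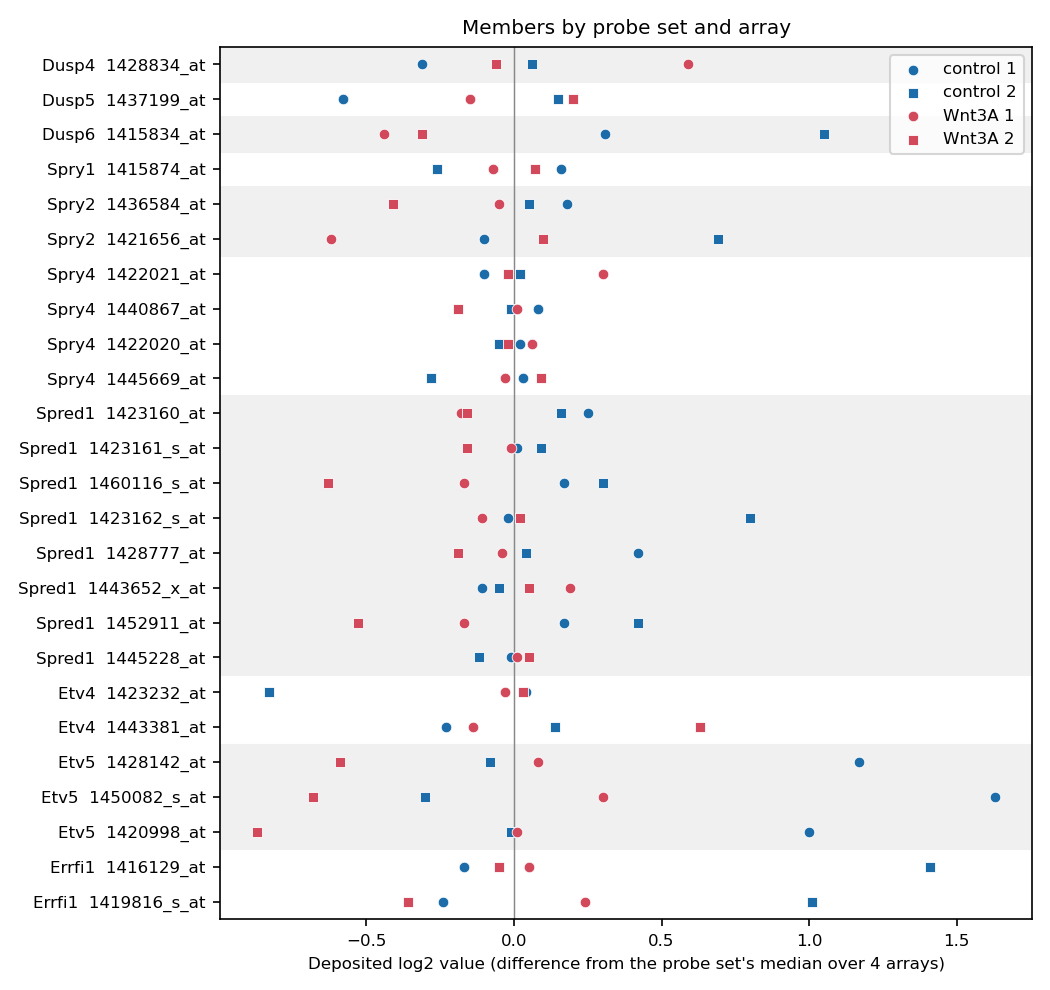
Each row is a probe set of a member, grouped by gene; the horizontal axis is the deposited log2 value and each point is 1 array (blue control, red Wnt3A, circle replicate 1, square replicate 2). Both red points lie left of both blue points for Dusp6 and for 5 Spred1 rows, while the Etv5 rows are stretched by control 1 (1.00 to 1.63) and the Errfi1 rows by control 2 (1.01 and 1.41).

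More member probe sets were separated lower than higher, while the total separated was near that of the array. Both Wnt3A arrays were below both controls for 7 of the 25 probe sets, against 16.3% of all probe sets, and above both for 2, against 17.4%. Together that is 9 of 25, close to the 33.7% found for all probe sets. Spred1 alone holds 5 of the 7 lower and the 2 higher. The difference exceeded the larger gap between the 2 arrays of a group for 5 of the 25, against 22.6% of all. The median difference was -0.34 over the 25 probe sets and 0.01 over the array, but 8 of the 25 belong to Spred1. With 1 value per gene, 3 of the 10 members were separated, all lower. Of all 16599 genes, 35.7% were separated in either direction and 18.4% lower. Among the 10 members, 2 differed by more than the larger gap, against 24.3% of all genes. On this scale 5 members lay above 0 and 5 below, with a median of -0.16 log2 units against 0.00 for all genes. That median was -0.08 without control 1, -0.10 without control 2 or without Wnt3A 2, and -0.29 without Wnt3A 1.

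The dual-specificity phosphatases remove phosphate from MAP kinases. Dusp6 is the cytoplasmic phosphatase selective for ERK, and its transcript is a standard readout of ERK and FGF signalling. Its probe set (1415834_at, range 8 to 16) read 0.31 and 1.05 in control 1 and 2, and -0.44 and -0.31 in Wnt3A 1 and 2. Both Wnt3A arrays were low and lay within 0.14 of each other, both controls were high, and the groups did not overlap. The difference of -1.05 is a ratio of 2.07 in favour of control (limma adjusted p = 0.728). It was -0.68 without control 2, which was the highest array, and -1.42 without control 1, so its size rested in part on control 2. Since the groups did not overlap, leaving out 1 array could not change its sign.

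Dusp4 and Dusp5 encode phosphatases of the nucleus, the second selective for ERK. Dusp4 (1428834_at, range 8 to 16) read -0.31 and 0.06 in the controls against 0.59 and -0.06 with Wnt3A. Only Wnt3A 1 was high, Wnt3A 2 lay between the controls, and the difference of 0.39 ± 0.28 was 0.07 without Wnt3A 1 (limma adjusted p = 0.939). Dusp5 (1437199_at, range 8 to 16) read -0.58 and 0.15 in the controls against -0.15 and 0.20 with Wnt3A. Control 1 was the low array, the other 3 lay between -0.15 and 0.20, and the difference of 0.23 ± 0.30 was -0.13 without control 1 (limma adjusted p = 0.991). Dusp6 therefore had the opposite sign to Dusp4 and Dusp5 over all 4 arrays, though neither of the latter differed by more than its within-group gap.

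Sprouty proteins block the step from receptor to Ras and Raf. Spry1 has 1 probe set (1415874_at, range 8 to 16), which read 0.16 and -0.26 in the controls against -0.07 and 0.07 with Wnt3A. Both Wnt3A arrays lay between the controls, and the difference was 0.05 ± 0.19 log2 units. Spry2 has 2 probe sets, both lower with Wnt3A on average. The brighter (1436584_at) read 0.18 and 0.05 in the controls against -0.05 and -0.41 with Wnt3A, so the groups were separated, with a difference of -0.35 ± 0.17 (limma adjusted p = 0.866) that was no larger than the gap of 0.36 between the Wnt3A arrays. The other (1421656_at, range 4 to 8) read -0.10 and 0.69 in the controls against -0.62 and 0.10 with Wnt3A, and these groups overlapped. Its difference of -0.55 ± 0.38 was -0.16 without control 2 and -0.95 without control 1.

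Spry4 was the flattest member. Its 4 probe sets differed by -0.12 to 0.18 log2 units, all had overlapping groups, and all 16 of their values lay between -0.28 and 0.30. The highest of these values, 0.30, was in Wnt3A 1 on the probe set 1422021_at, which differed by 0.18 ± 0.17. The lowest, -0.28, was in control 2 on 1445669_at, which lies below log2 4. The 3 Sprouty genes thus gave no shared direction: Spry2 was lower with Wnt3A on both probe sets, and the Spry1 and Spry4 probe sets differed by at most 0.18 log2 units.

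Spred1 is a membrane-bound relative of the Sproutys that holds the Ras inhibitor neurofibromin at the membrane. It had 8 probe sets, which share a target and are not replicates of each other. Of these, 6 had a negative difference, from -0.64 to -0.14, and 5 were separated lower. The 3 brightest were all separated lower. The probe set 1423160_at read 0.25 and 0.16 in the controls against -0.18 and -0.16 with Wnt3A. Its arrays lay within 0.09 of each other in each group, and its difference was -0.37 ± 0.12 (limma adjusted p = 0.77). The probe set 1460116_s_at read 0.17 and 0.30 against -0.17 and -0.63, a difference of -0.63 ± 0.20 (limma adjusted p = 0.761). On 1423161_s_at the values were 0.01 and 0.09 against -0.01 and -0.16, a difference of -0.14 ± 0.13. Since all 3 were separated, leaving out 1 array could not change their sign.

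In the range 4 to 8, the Spred1 probe set 1452911_at read 0.17 and 0.42 in the controls against -0.17 and -0.53 with Wnt3A, a difference of -0.64 ± 0.19 (limma adjusted p = 0.747). On 1428777_at the values were 0.42 and 0.04 against -0.04 and -0.19, a difference of -0.34 ± 0.18. Both were separated lower. The probe set 1423162_s_at (-0.43 ± 0.31) overlapped, with control 2 at 0.80 and the other 3 arrays between -0.11 and 0.02, and it was -0.02 without control 2. The remaining 2 ran the other way by small amounts: 1443652_x_at differed by 0.20 ± 0.13 and 1445228_at, below log2 4, by 0.10 ± 0.12, both separated higher. The suffix _x_at marks a set whose probes may match other sequences, and _s_at one shared by several transcripts. The first of these is annotated to the same sequence record as 1460116_s_at, which differed by -0.63. As a gene, from its 3 brightest probe sets, Spred1 differed by -0.38 ± 0.14 log2 units (0.77-fold, limma adjusted p = 0.635), and by -0.28 to -0.48 with each array left out.

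Some luminal markers were separated lower in the same arrays as Dusp6 and Spred1. The hormone-sensing cell factor gene Foxa1 read 0.68 and 1.47 in the controls against -1.85 and -0.68 with Wnt3A (-2.34 ± 0.48, limma adjusted p = 0.444). The luminal keratin gene Krt19 read 0.02 and 1.77 against -0.02 and -1.61 (-1.71 ± 0.79), and the progesterone receptor gene Pgr 0.31 and 1.40 against -0.47 and -0.31 (-1.25 ± 0.39). These 3 had the largest differences of the 13 luminal markers measured, and the list as a whole had no single direction: 4 were separated lower, 3 higher and 6 overlapped, against 18.4% and 17.2% of all genes lower and higher. The list median was -0.09 and 0.08 in control 1 and 2 and 0.02 and -0.10 in Wnt3A 1 and 2. The part of these markers in the Dusp6 and Spred1 values was not tested.

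**Figure D2:**
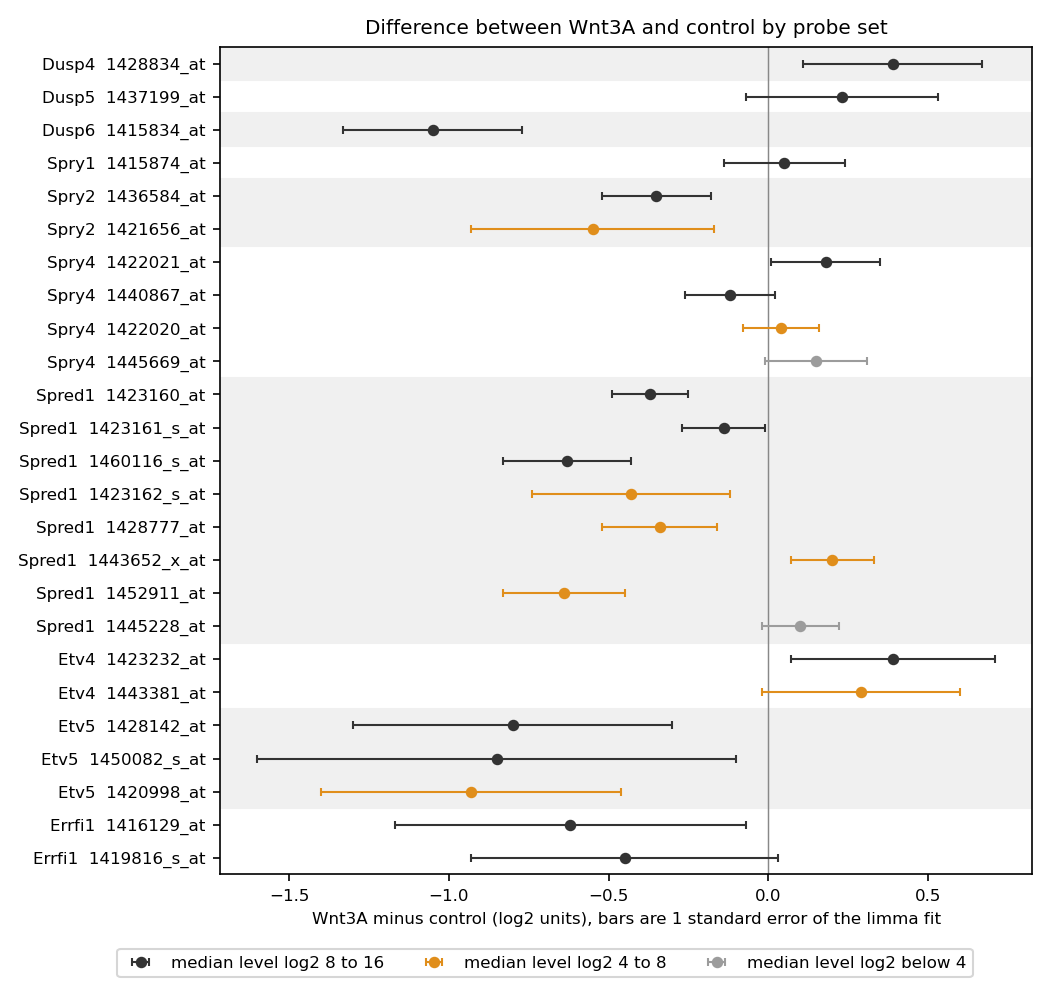
Each row is a probe set, the point is its Wnt3A minus control difference in log2 units and the bar is 1 SE of the limma fit; colour gives the median level range. Dusp6 lies at -1.05, 6 Spred1 rows lie left of 0, the Etv5 rows have long bars (SE 0.47 to 0.75), and the Spry4 rows sit within 0.18 of 0.

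Etv4 and Etv5 are PEA3-group Ets factors whose transcripts are induced by FGF and EGF signals. All 3 Etv5 probe sets were lower with Wnt3A on average and all overlapped. On the probe set 1450082_s_at, Etv5 read 1.63 in control 1 and -0.30 in control 2, against 0.30 and -0.68 with Wnt3A. On 1428142_at it read 1.17 and -0.08 against 0.08 and -0.59, and on 1420998_at 1.00 and -0.01 against 0.01 and -0.87. Control 1 was the highest and Wnt3A 2 the lowest array on every probe set, with control 2 and Wnt3A 1 between. The differences were -0.85 ± 0.75, -0.80 ± 0.50 and -0.93 ± 0.47, each smaller than the gap between the controls (limma adjusted p = 0.964, 0.918 and 0.875). Without control 1 they were 0.11, -0.18 and -0.42. Within each replicate number the Wnt3A array was below the control on all 3 probe sets. With a block for that number the SEs were 0.28, 0.19 and 0.11 (limma adjusted p = 0.46, 0.414 and 0.378). That fit has fewer residual degrees of freedom than the main fit, so its SEs are less certain. The labels do not say what the number marks.

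Control 1 also stood apart on some basal genes. The smooth muscle genes Tagln and Cnn1 read -4.03 and -2.75 there, against 0.08 and 0.48 in control 2, and between -0.48 and 0.65 with Wnt3A. The oxytocin receptor gene Oxtr, which serves contraction of the same cells, was not low there: it read 0.67 and 0.64 in the controls against -0.58 and -0.87 with Wnt3A. The median of the whole basal list was -0.27 in control 1, 0.06 in control 2, and -0.14 and 0.11 with Wnt3A. The part of this in the Etv5 values was not tested.

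Etv4 went the other way, with a different array apart. Its brighter probe set (1423232_at) read 0.04 and -0.83 in control 1 and 2, and -0.03 and 0.03 in Wnt3A 1 and 2. Apart from control 2 all values lay between -0.03 and 0.04. The difference of 0.39 ± 0.32 was -0.04 without that array. On 1443381_at (range 4 to 8) it was Wnt3A 2 that stood high, at 0.63 against -0.14 in Wnt3A 1 and -0.23 and 0.14 in the controls, and the difference of 0.29 ± 0.31 was -0.10 without it. Neither probe set separated the groups, and the arrays that set the difference were not the same.

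Errfi1 encodes a cytoplasmic protein, also called Mig6 or RALT, that binds the kinase domain of EGF receptors and shuts them off. Its probe set 1416129_at read -0.17 and 1.41 in control 1 and 2, and 0.05 and -0.05 in Wnt3A 1 and 2. The second, 1419816_s_at, read -0.24, 1.01, 0.24 and -0.36 in the same order. Control 2 alone was high on both, and the other 3 arrays lay between -0.36 and 0.24. The differences of -0.62 ± 0.55 and -0.45 ± 0.48 (limma adjusted p = 0.965 and 0.977) turned to 0.17 and 0.18 without control 2. Control 2 was also the highest array for the luminal genes Foxa1, Krt19 and Pgr, whose values are given with Spred1, but the luminal list median was only 0.08 there, against -0.09 in control 1. The part of these genes in the Errfi1 values was not tested.

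**Figure D3:**
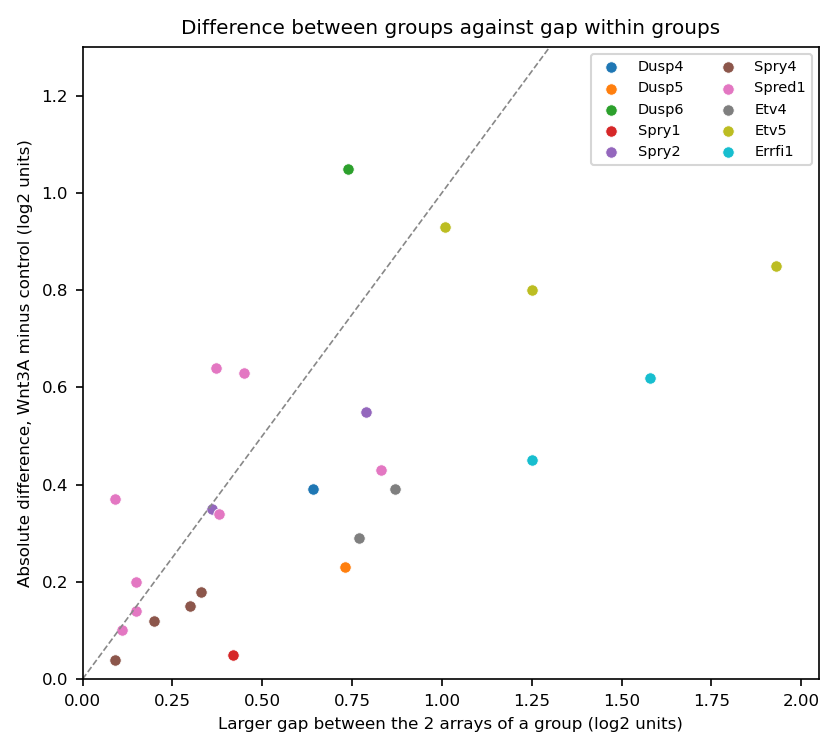
Each point is a probe set of a member, coloured by gene; the horizontal axis is the larger of the gaps between the 2 control or the 2 Wnt3A arrays and the vertical axis the absolute Wnt3A minus control difference, both in log2 units. Above the dashed line of equality lie Dusp6 and 4 Spred1 probe sets, of which 1443652_x_at was higher with Wnt3A (0.20). The Etv5 and Errfi1 points lie furthest to the right, at gaps of 1.01 to 1.93.

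The 2 controls differed from each other more on the members than on the array as a whole. The median gap between controls was 0.37 log2 units over the 25 probe sets and 0.18 over all probe sets. Between the Wnt3A arrays it was 0.20 and 0.19. The gap was wider between controls than between Wnt3A arrays for 15 of the 25, against 49.0% of the array. The order of the controls was not shared: control 1 was above control 2 for 12 of the 25, among them every Etv5 probe set, while control 2 was higher on Dusp6 and on both Errfi1 probe sets.

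**Figure D4:**
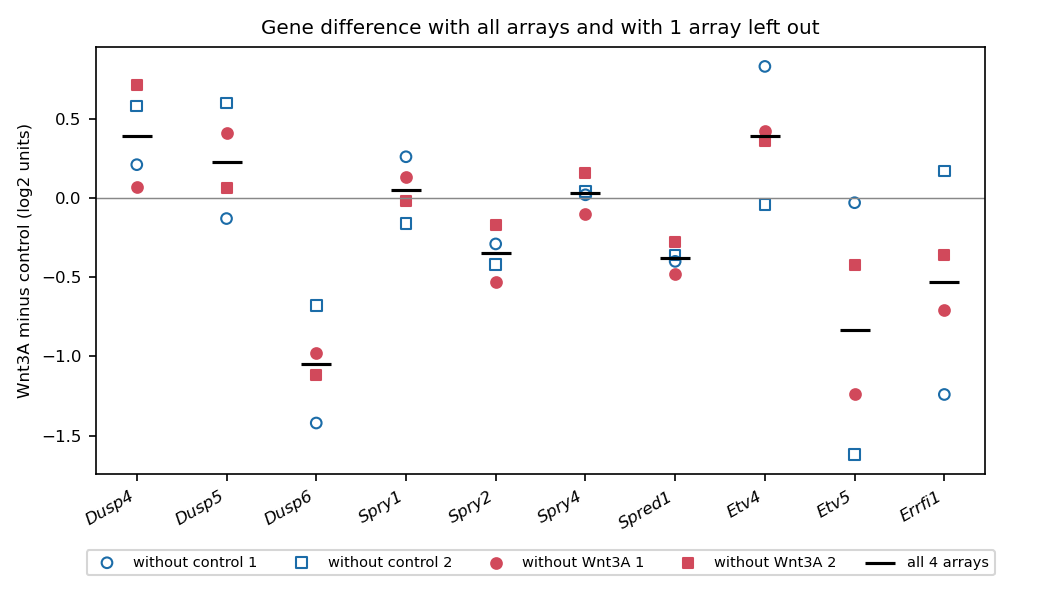
For each member gene, the black bar is the Wnt3A minus control difference in log2 units from all 4 arrays and the points are the same difference with 1 array left out (open blue, a control; filled red, a Wnt3A array). Dusp6, Spry2 and Spred1 stay below 0, which their separated groups fix in advance. Etv5 moves from -0.03 without control 1 to -1.62 without control 2, and Errfi1 moves from -1.24 to 0.17.

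Other genes of the pathway gave a mixed picture. Among 9 further dual-specificity phosphatases, 4 were separated higher and 1 lower, against 17.2% and 18.4% of all genes, with no call and a median difference of 0.27 log2 units (0.12 without control 1 and 0.17 without Wnt3A 1). Dusp9, a phosphatase of the same cytoplasmic ERK-selective group as Dusp6, read -0.43 and -0.89 in the controls against 0.67 and 0.43 with Wnt3A. That is a separated difference of 1.21 ± 0.21, with the opposite sign to Dusp6 (limma adjusted p = 0.381), and it was 0.98 to 1.44 with each array left out. Dusp7, the third of that group, differed by 0.50 ± 0.17, and Dusp14 and Dusp22 by 0.49 ± 0.14 and 0.32 ± 0.19, all separated higher. Dusp9 and Dusp7 were thus high in the arrays in which Dusp6 was low.

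A list of 18 other inhibitors or regulators of the pathway, called the other inhibitors below, was also measured. Of these, 6 were separated higher, 3 lower and 9 overlapped, against 17.2% and 18.4% of all genes higher and lower. The list median was -0.02. Spred3, the relative of Spred1, differed by 0.54 ± 0.18, with -0.57 and -0.16 in the controls against 0.16 and 0.19 with Wnt3A. Rgs4, a regulator of G-protein signalling, differed by 0.58 ± 0.15 and Flrt3, a membrane protein that binds FGF receptors, by 0.58 ± 0.27. The ubiquitin ligase gene Peli1 differed by -0.45 ± 0.18. All 4 were separated. The receptors and kinases upstream were measured for 18 of the 25 listed genes: 5 were separated higher and 4 lower, against the same shares of all genes, with a median of -0.03. The FGF receptor gene Fgfr1 read 0.18 and 0.20 in the controls against -0.25 and -0.18 with Wnt3A (-0.41 ± 0.13, limma adjusted p = 0.568). The adaptor gene Gab1 differed by -0.40 ± 0.21 and the phosphatase gene Ptpn11 by 0.40 ± 0.21, both separated. The Raf kinase gene Braf differed by -0.41 ± 0.34 and overlapped, and was at 0.03 without Wnt3A 1.

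Early and delayed ERK response genes were separated in both directions, more often higher with Wnt3A. Of 29 measured, 12 were separated higher, 2 lower and 15 overlapped, against 17.2% and 18.4% of all genes higher and lower, with a median of 0.08, which was 0.12 to 0.25 with each array left out. In this list 10 genes had an unadjusted p under 0.05 in limma, against 7.75% of all genes. The growth factor gene Epgn (1.65 ± 0.21), the urokinase receptor gene Plaur (1.58 ± 0.28) and the chromatin protein gene Hmga2 (1.19 ± 0.16) were separated higher. Egr2, an immediate early zinc finger factor, was separated lower and had the same order of arrays as Dusp6, at 0.33 and 1.22 in the controls against -0.79 and -0.33 with Wnt3A (-1.33 ± 0.35, limma adjusted p = 0.516). Genes grouped as ERK outputs therefore lay on both sides of 0 in the same arrays, with more of them separated higher than lower.

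Among 20 other Ets factors, 2 were separated higher, 3 lower and 15 overlapped, with a median of -0.04. That is 5 of 20 separated, below the 35.7% of all genes. Spdef, an Ets factor of luminal and secretory epithelium, read 0.40 and 0.64 in the controls against -0.42 and -0.40 with Wnt3A, a separated difference of -0.93 ± 0.15 (limma adjusted p = 0.378). Gabpa differed by -0.34 ± 0.13 and Elk3 by 0.37 ± 0.16, both separated. Elf5, the alveolar Ets factor, ranged from -1.72 in Wnt3A 2 to 1.12 in Wnt3A 1, and its difference of -0.30 ± 0.99 took either sign when a Wnt3A array was left out.

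**Figure D5:**
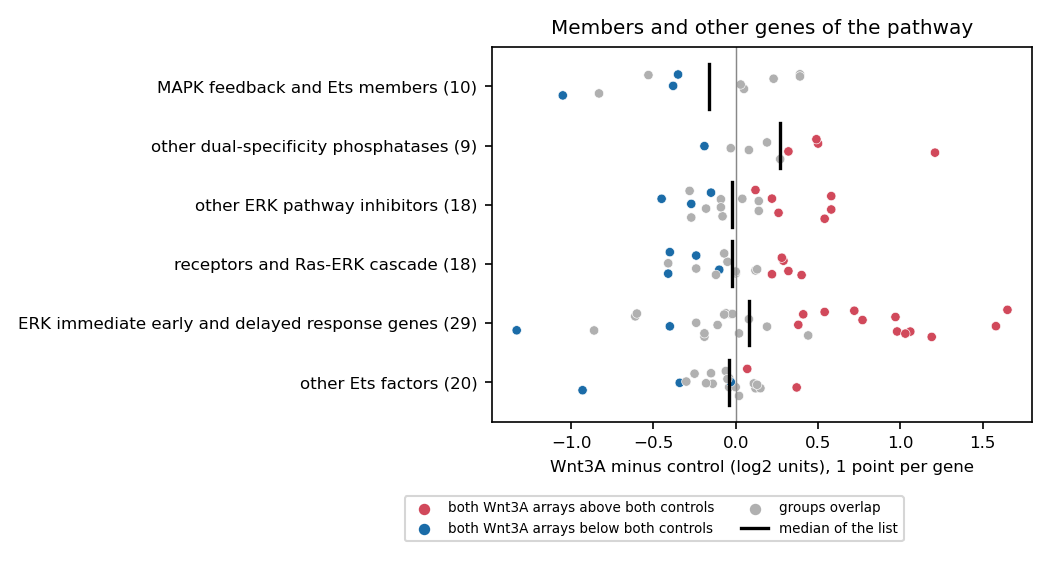
Each point is a gene, placed by its Wnt3A minus control difference in log2 units (horizontal axis) in its list (rows, with the number measured); red and blue mark genes whose Wnt3A arrays were both above or both below the controls, grey those that overlapped, and the black bar is the list median. The lists straddle 0, with medians from -0.16 for the members to 0.27 for the other dual-specificity phosphatases.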

How the data were processed

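RNA was hybridised to Affymetrix Mouse Genome arrays, 2 control and 2 Wnt3A. The deposited log2 values come from RMA (version not given), as the submitters' processing notes state. No source used here describes their centring, but all 45101 row medians were 0 (within 1e-06). Leaving out 64 array controls left 45037 probe sets, 34945 of them with a single symbol. The test was limma 3.58.1 under R 4.3.3 (lmFit, eBayes, two-sided, Benjamini-Hochberg over all features, threshold 0.05, no covariate, 2 residual and 2.30 prior degrees of freedom), and SEs are those of the moderated fit. Members are given per probe set. Lists use 1 value per gene, averaging the probe sets that lie in the highest level range reached, with 1594 genes below log2 4 left out. Ranges came from the spacing of the stored numbers, in place of the filter on levels that centred values do not allow. Both steps were tested on simulated data. For a change of 1 log2 unit limma recovered 0% of the changed probe sets and 4% of the changed genes. For 2 log2 units it recovered 52% and 78%. False calls numbered 7 among probe sets and 6 among genes. The level reading placed too high 13.2% of simulated probe sets in the range 4 to 8 and 14.7% of those below 4. An exact permutation test of 2 against 2 arrays cannot give a two-sided p below 0.33. The number of arrays limits the precision.

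The members and lists were chosen with earlier results of these data known, so no set test was run. Every member is named with every probe set. From each other pathway list the 4 genes with the largest absolute difference are named, and from each cell type list, where 3 were taken, those beside a result. Alternatives were quantile normalization, centring of each array, robust eBayes, filters on level, other gene values, a replicate block, omission of each array in turn, and a threshold of 0.25. Matplotlib 3.10.9 (Python 3.11.15) drew the figures.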

Additional observations from a re-analysis of the deposited data

How the results depend on the processing

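Limma called 0 probe sets and 0 genes at an adjusted p under 0.05 under every alternative run. At 0.25 it called 0 probe sets and 33 genes. Only overlapping groups can change sign with 1 array left out. They made up 16 of the 25 member probe sets, while 33.7% of all probe sets were separated. Of the 25, 17 kept their sign under all alternatives and 8 changed it with 1 array left out, a count not made over the array. Left-out ranges of those 8 were -0.13 to 0.60 for Dusp5, -0.16 to 0.26 for Spry1, -0.01 to 0.08 for Spry4 (1422020_at), -0.04 to 0.83 (1423232_at) and -0.10 to 0.68 (1443381_at) for Etv4, -1.82 to 0.11 for Etv5 (1450082_s_at), and -1.41 to 0.17 (1416129_at) and -1.07 to 0.18 (1419816_s_at) for Errfi1; the cause was not tested. No member probe set changed sign under quantile normalization or array centring, which moved the array medians only slightly. Robust eBayes, the level filter and the replicate block leave the difference itself unchanged, so they could not change a sign.

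With each array left out, list medians ran from -0.29 to -0.08 for the members, 0.12 to 0.34 for the other phosphatases, -0.03 to 0.06 for the other inhibitors, -0.09 to 0.10 for the receptors and cascade, 0.12 to 0.25 for the ERK response genes and -0.10 to 0.02 for the other Ets factors. With the upper level range alone the other inhibitors were at -0.09, and with the mean of all probe sets the other Ets factors were at -0.01. A lone array left in a group was assumed to vary like the other group.

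Deviations of same-numbered arrays from their group means correlated at 0.526 over 45037 probe sets, but the labels do not say what the number marks. With the replicate block the member differences were unchanged. In that fit 8 of the 25 had an unadjusted p under 0.05 in limma, in place of 4 (4882 probe sets in all, in place of 2801). The lowest limma adjusted p of a member was then 0.378, for Etv5 on 1420998_at, with Dusp6 and Spry2 (1421656_at) at 0.395. At the threshold of 0.25, 305 genes passed in place of 33.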
